A study of Mus musculus with 16 samples.

Results

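DNA methylation at CpG dinucleotides is written, copied and removed by a small set of enzymes, and 8 genes of that machinery were followed here across mouse pluripotent stem cell cultures: Dnmt1, Uhrf1, Dnmt3a, Dnmt3b, Dnmt3l, Tet1, Tet2 and Tet3. They were chosen by name, as the writers, the copying cofactor and the erasers. All 8 were present among the 34042 genes of the count table, and all 8 passed the low-count filter that left 18555 genes for testing.

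The RNA-seq libraries came from 16 cultures of established mouse lines in 4 conditions, part of a study on capturing formative pluripotency, the state between the naive cell and the cell primed to differentiate. Naive embryonic stem cells (ES) were 4 libraries of line E14IV-C in the medium 2iL, at passages 12, 13, 15 and 20. Formative stem cells (FS) were 6 libraries in A3XR, of line 5ar1 at passages 10, 12 and 14 and of line 5ar3 at passages 12, 4 and 5. Epiblast stem cells (EpiSC) were 3 libraries of line AFX6 in AFX medium, at passages 12, 5 and 8 (EpiSC_AFX), and 3 of line AF32 in AF medium, at passages 13, 14 and 15 (EpiSC_AF). The labels name no engineered allele in any line. Each condition other than FS rests on 1 line, and no line, those of FS included, has libraries in more than 1 medium. Medium and line thus cannot be told apart in any comparison between conditions, and replicates are passages of a line.

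In mammals DNMT1, brought to newly replicated DNA by UHRF1, copies methylation onto the daughter strand. DNMT3A and DNMT3B place it anew, aided by DNMT3L, which has no catalytic activity of its own. TET1, TET2 and TET3 oxidise 5-methylcytosine, after which it is diluted by replication or excised and repaired. Naive cells in 2iL are known for a genome low in methylation, and the genome gains methylation as the epiblast passes towards the primed state.

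Total counts per library ran from 22069338 to 33290250. Naive and formative markers separated ES from the other cultures: the summed level of 7 naive genes was 2327 to 3635 CPM (counts scaled to library size) in ES and 4.10 to 13.4 in the other libraries, while 4 formative genes summed to 11.96 to 23.6 CPM in ES and 253 to 502 elsewhere. The naive sums of FS and EpiSC overlapped. The formative sum was 299 to 502 CPM in FS, 285 to 295 in EpiSC_AFX and 253 to 386 in EpiSC_AF. FS thus lay just above EpiSC_AFX and overlapped EpiSC_AF. For 3 primitive streak genes the sum was 7.497 to 14.3 CPM in ES, 16.01 to 46.7 in FS, 14.3 to 36.2 in EpiSC_AFX, which overlapped the FS range, and 111 to 299 in EpiSC_AF. Markers of other cells also moved with the groups. For 3 neuroectoderm genes the sum was 0.813 to 2.68 CPM in ES and 2.23 to 36.4 in FS. It was 0.373 to 2.33 CPM in EpiSC_AFX and 4.25 to 13.6 in EpiSC_AF. Between the FS lines, 2 of these 3 genes were lower in 5ar1 than in 5ar3 at an edgeR adjusted p under 0.05. Of all genes, 3.88% differed between the lines in either direction. Of 7 fibroblast genes, as feeder cells would carry, 1 was at 0 in every ES library and none in the other groups, and their sum was 0.587 to 1.10 CPM in ES, 17.3 to 34.4 in FS, 12.3 to 20.4 in EpiSC_AFX and 32.98 to 79.4 in EpiSC_AF. For 5 endoderm genes, none at 0 throughout a group, the sum was 0.903 to 1.87 CPM in ES, 0.414 to 7.19 in FS, 1.22 to 128.5 in EpiSC_AFX and 192 to 544 in EpiSC_AF. The sum of 5 trophoblast genes was 6.19 to 8.29 CPM in ES and 17.98 to 47.3, 14.4 to 32.4 and 43.04 to 139.9 in FS, EpiSC_AFX and EpiSC_AF, with 1 of the 5 at 0 throughout each group except EpiSC_AF. Eomes is in both the trophoblast and the primitive streak list. In FS it was the 1 gene of either list higher than in ES at an edgeR adjusted p under 0.05 (log2 fold change 3.36). Cdx2 (-4.50) and T (-2.80) were lower. The sum of 5 germ cell genes, none at 0 throughout a group, was 99.2 to 181 CPM in ES and 0.606 to 1.77, 1.63 to 6.004 and 5.62 to 17.8 in FS, EpiSC_AFX and EpiSC_AF. Their part in the results below was not tested. In EpiSC_AFX the X-inactivation RNA Xist was at 245 to 557 CPM, against at most 0.523 in every other library, and the Y-linked gene Uty was at most 0.143 CPM there and at least 38.1 elsewhere, so differences of EpiSC_AFX from the rest also cannot be told apart from sex chromosomes. ES replicate 1 stood apart: the mitochondrial ribosomal RNA mt-Rnr2 took 38.1% of its counts (17.7% to 18.97% in the other ES libraries), it was the lowest ES library for 7 of the 8 genes (36.6% of all tested genes were lowest there), and its median log2 difference from the other ES libraries was 0.24 for the shortest tertile of transcripts and -0.24 for the longest. The fold changes against ES are therefore also given without it.

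The sequences in front of Dnmt3b, Tet2 and Dnmt3l are shown because they stand for the 3 kinds of change described below, a writer that rose, an eraser that fell and a cofactor all but lost, and because their starts differ in CpG content, the substrate of these enzymes. They are RefSeq promoter windows of GRCm38.p6, read 5′ to 3′ on the gene's strand, with each CpG in capitals. That of Dnmt3b is chr2:153649199-153649448 (plus strand), that of Tet2 is chr3:133544391-133544640 (minus strand), and that of Dnmt3l is chr10:78042136-78042286 (plus strand), shortened to the bases outside annotated exons.
Dnmt3b: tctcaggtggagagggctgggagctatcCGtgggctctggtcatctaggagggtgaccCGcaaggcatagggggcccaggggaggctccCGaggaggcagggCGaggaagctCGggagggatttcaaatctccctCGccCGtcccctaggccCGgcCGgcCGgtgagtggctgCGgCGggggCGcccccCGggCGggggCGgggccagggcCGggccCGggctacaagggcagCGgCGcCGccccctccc
Tet2: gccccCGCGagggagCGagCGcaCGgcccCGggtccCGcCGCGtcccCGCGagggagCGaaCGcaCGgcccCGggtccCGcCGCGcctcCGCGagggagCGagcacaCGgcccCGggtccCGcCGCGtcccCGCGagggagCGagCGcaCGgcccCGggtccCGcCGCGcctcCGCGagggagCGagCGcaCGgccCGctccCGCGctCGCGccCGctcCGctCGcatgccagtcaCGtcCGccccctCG
Dnmt3l: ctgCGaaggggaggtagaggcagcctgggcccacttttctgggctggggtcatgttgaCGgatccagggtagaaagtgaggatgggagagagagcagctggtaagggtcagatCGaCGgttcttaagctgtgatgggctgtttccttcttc
Over 32851 windows the 250 bases before a start held a median of 6 CpG. The Dnmt3b stretch held 21, more than 83.7% of windows, and the Tet2 stretch held 51, more than 99.9%. The Tet2 letters show a CG-rich unit that recurs along the stretch. Dnmt3a, the other writer that rose, held 38, 40 and 15 in its 3 windows, and Tet3, which also rose, held 17. Of the genes that fell, Tet1 held 15, Uhrf1 10 and 30, and Dnmt1 26, 7 and 2. A link of CpG content to the direction of change was not tested. The 3 windows of Dnmt3l held 5, 4 and 3 in their 250 bases. Methylation itself was not among the data used here.

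A second feature was shared by Dnmt1 and Uhrf1, whose proteins act together. One window of each held TTTCGCGC, the motif of E2F factors that drive S-phase genes, searched on both strands, and 0.323% of all windows held it. It was in 2 of the 15 windows of the 8 genes, and it was searched for after those windows had been read. The match is in capitals in 28 bases of Dnmt1 at chr9:20952825-20952852 (minus strand, within an annotated exon, where the motif reads as its reverse complement) and of Uhrf1 at chr17:56304118-56304145 (plus strand, in no annotated exon).
Dnmt1: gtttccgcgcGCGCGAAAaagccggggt
Uhrf1: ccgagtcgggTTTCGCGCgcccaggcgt
A match describes the letters only. The motif of the naive factor Esrrb, TCAAGGTCA on both strands, was in none of the 15 windows and in 0.423% of all.

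The 3 comparisons with ES gave the same calls for the 8 genes. In FS, EpiSC_AFX and EpiSC_AF alike, Dnmt3a, Dnmt3b and Tet3 were higher than in ES and Dnmt1, Uhrf1, Dnmt3l, Tet1 and Tet2 were lower (edgeR quasi-likelihood test, Benjamini-Hochberg adjusted p under 0.05 over all 18555 genes). All 8 of 8 were thus called in each comparison, where 62.8% of all genes were called in FS, 54.7% in EpiSC_AFX and 56.7% in EpiSC_AF. The 3 higher genes stand beside 32.9%, 28.5% and 29.7% of all genes called higher, and the 5 lower ones beside 29.9%, 26.2% and 27.0% called lower. With most genes called, the count is not far from the background; the sizes below carry the description. The comparisons share the same 4 ES libraries. The libraries of 7 of the 8 genes did not overlap between FS and ES (46.3% of all genes did not), and those of all 8 did not overlap between EpiSC_AFX and ES (58.7%) or EpiSC_AF and ES (62.3%). In bulk RNA, fewer cells expressing a gene and less RNA per cell cannot be told apart.

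**Figure D1:**
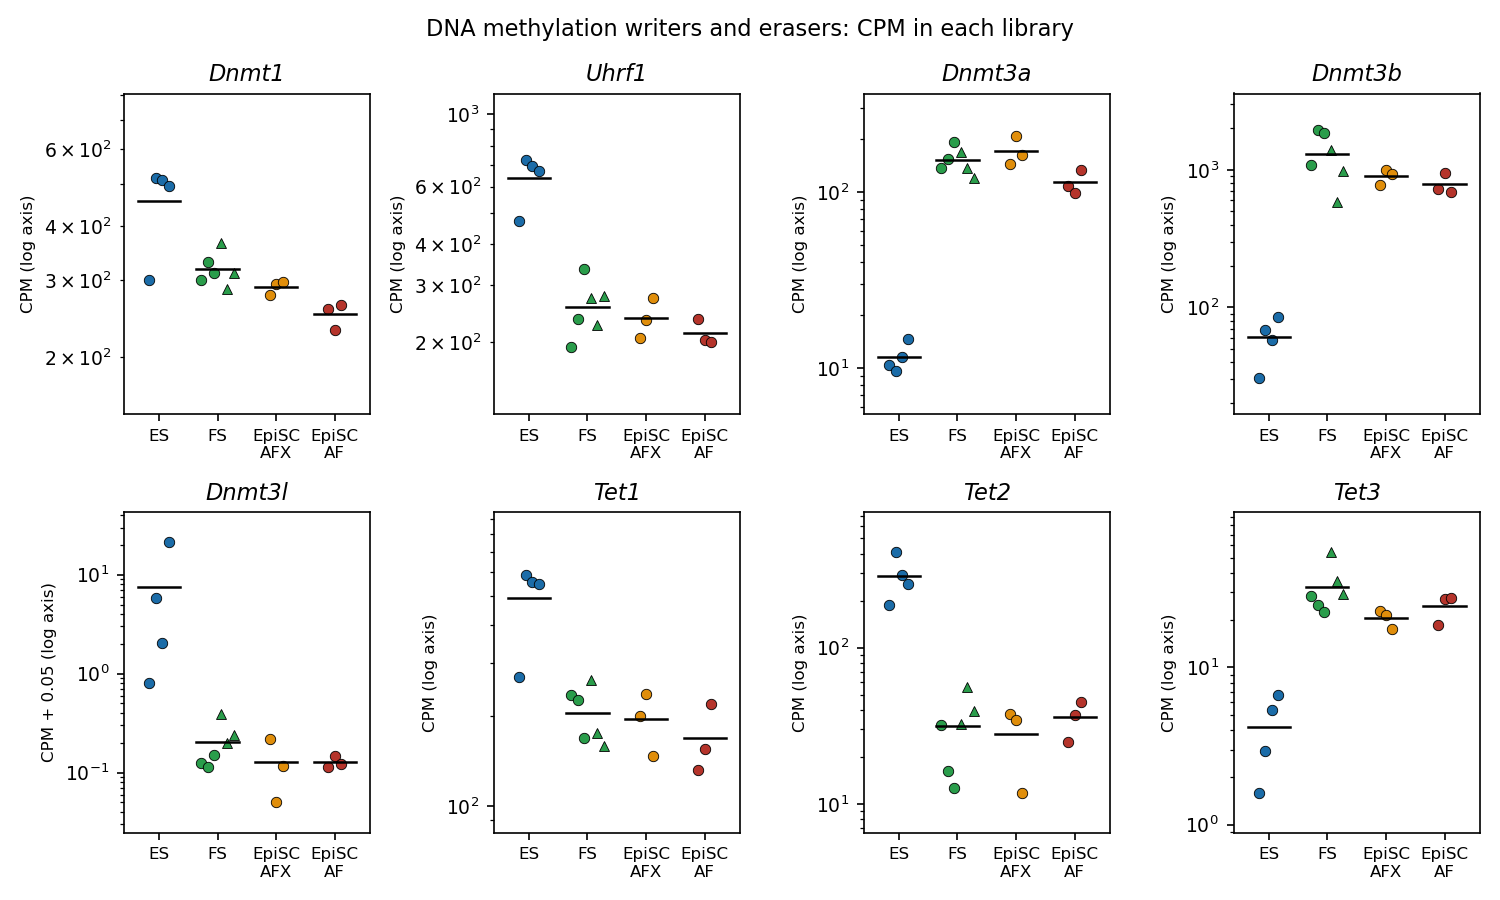
CPM (TMM scale, log axes) of the 8 genes in each of the 16 libraries, by culture condition; bars are group means, FS triangles are line 5ar3 and FS circles line 5ar1, and 0.05 was added for Dnmt3l, which had 0 counts in 1 library. ES points stand apart from all other groups for every gene except Dnmt1, where ES replicate 1 (301 CPM) lies among the FS libraries.

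The maintenance genes, the most abundant members in ES per kilobase, were lower in every other condition. Dnmt1, the maintenance methyltransferase (chr9:20907209-20959888, minus strand), was at 301, 516, 510 and 495 CPM in ES replicates 1 to 4. FS ran from 287 to 365 with a median of 312, EpiSC_AFX held 277, 294 and 297, and EpiSC_AF held 258, 231 and 264. The 3 ES libraries other than replicate 1 lay above every other library, and replicate 1 lay within the FS range. The log2 fold change was -0.52 ± 0.13 (SE; edgeR adjusted p = 0.00241) in FS, -0.65 ± 0.16 (edgeR adjusted p = 0.00224) in EpiSC_AFX and -0.86 ± 0.16 (edgeR adjusted p = 2.10e-04) in EpiSC_AF. Without ES replicate 1 these were -0.67, -0.80 and -1.01. Dnmt1 was the member whose call depended on scaling: with plain total counts in place of TMM, its edgeR adjusted p was 0.409 in FS and 0.122 in EpiSC_AFX, and that scaling also moved the median over all genes in FS from 0.04 to 0.40 and the share of higher genes among the calls from 52.4% to 70.5%.

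Uhrf1, which recognises hemimethylated CpG and recruits DNMT1 (chr17:56303321-56323486, plus strand), was at 470, 723, 692 and 672 CPM in ES. It ran from 193 to 336 in FS with a median of 255. EpiSC_AFX libraries held 206, 234 and 274 CPM and EpiSC_AF libraries 236, 203 and 200. Every ES library was above every other library. Uhrf1 changed by -1.32 ± 0.15 on the log2 scale in FS (edgeR adjusted p = 9.00e-07), by -1.43 ± 0.19 in EpiSC_AFX (edgeR adjusted p = 6.84e-06) and by -1.58 ± 0.19 in EpiSC_AF (edgeR adjusted p = 2.20e-06). The values without ES replicate 1 were -1.44, -1.54 and -1.70. Uhrf1 thus fell further than its partner: per kilobase of exon, the Dnmt1 level over the Uhrf1 level was 0.408 ± 0.0262 (SD, n = 4) in ES, 0.733 ± 0.127 (n = 6) in FS, 0.7104 ± 0.0774 (n = 3) in EpiSC_AFX and 0.681 ± 0.0682 (n = 3) in EpiSC_AF. The highest ES library, at 0.426, was below the lowest FS library, at 0.537. Because both proteins act at replication forks, 10 S-phase genes were read beside them. In FS 1 of 10 was lower and none higher, where 29.9% of all genes were called lower. In EpiSC_AFX 2 were lower (26.2% of all genes) and in EpiSC_AF 4 were lower (27.0%). Their median log2 fold changes were -0.02, -0.23 and -0.29, beside 0.04, 0.01 and 0.01 over all genes. A link to the fall of Dnmt1 or Uhrf1 was not tested. Mcm3, a subunit of the replicative helicase, was the S-phase gene lower in all 3, with log2 fold changes of -0.33, -0.59 and -0.82. With total-count scaling neither the S-phase gene called in FS nor the 2 in EpiSC_AFX stayed called, and of the 4 in EpiSC_AF only Mcm3 did.

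De novo methyltransferases moved the other way. Dnmt3b (chr2:153649450-153687730, plus strand), the main de novo enzyme of the early epiblast, was at 30.8, 68.9, 57.5 and 85.5 CPM in ES. In FS the lowest library held 588, the median was 1239 and the highest held 1942. EpiSC_AFX libraries were at 772, 997 and 937 CPM and EpiSC_AF libraries at 730, 941 and 691. The highest ES library was several times below the lowest of all others. Dnmt3b rose by 4.43 ± 0.36 on the log2 scale in FS (21.5-fold; edgeR adjusted p = 9.67e-09), by 3.89 ± 0.37 in EpiSC_AFX (14.8-fold; edgeR adjusted p = 1.17e-07) and by 3.70 ± 0.36 in EpiSC_AF (12.95-fold; edgeR adjusted p = 1.92e-07). Without ES replicate 1, its lowest library, the values were 4.21, 3.68 and 3.49. With passage as a covariate the EpiSC_AFX value was 4.68.

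Dnmt3a, the other catalytic de novo enzyme (chr12:3806007-3914443, plus strand), was at 10.4, 9.57, 11.5 and 14.6 CPM in ES. FS ran from 120 to 190 with a median of 145, EpiSC_AFX held 145, 206 and 161, and EpiSC_AF held 108, 98.2 and 133. Every library outside ES was above every ES library. The log2 rise was 3.71 ± 0.18 in FS (13.1-fold; edgeR adjusted p = 2.19e-11), 3.88 ± 0.20 in EpiSC_AFX (14.8-fold; edgeR adjusted p = 6.91e-11) and 3.29 ± 0.19 in EpiSC_AF (9.77-fold; edgeR adjusted p = 3.47e-10). Leaving out ES replicate 1 gave 3.66, 3.85 and 3.25. Of the 8 genes it had the smallest SE relative to its change. Although the folds of Dnmt3a and Dnmt3b were of similar size, their levels were not: per kilobase of exon, FS held 256 ± 103 CPM of Dnmt3b (SD, n = 6) and 9.07 ± 1.52 of Dnmt3a. Dnmt3b made up 96.1% ± 1.49 of the summed level of Dnmt3a, Dnmt3b and Dnmt3l in FS, 94.5% ± 0.477 in EpiSC_AFX (n = 3), 95.7% ± 1.23 in EpiSC_AF (n = 3) and 82.1% ± 9.78 in ES (n = 4). The Dnmt3a share was 5.42% ± 2.59 in ES and 3.84% ± 1.48 in FS. ES replicate 4, the library with the most Dnmt3l, had the lowest Dnmt3b share, 67.8%.

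Dnmt3l, the catalytically inactive cofactor (chr10:78041947-78063622, plus strand), went against its partners. ES replicates 1 to 4 had 11, 129, 44 and 498 counts. The 6 FS libraries had 2, 2, 3, 9, 4 and 4, EpiSC_AFX had 5, 0 and 2, and EpiSC_AF had 2, 3 and 2. All ES libraries were above all others, yet they spread over a wider range among themselves than any other member did in ES: 0.760, 5.83, 2.01 and 21.2 CPM at passages 12, 13, 15 and 20. Pooled over libraries, ES exceeded FS by 56.3 times (95% exact counting interval 37.5 to 88.4), and by 21.3 times (13.9 to 34.1) without ES replicate 4. For EpiSC_AFX the ratio was 103.5 (49.9 to 258) and 39.1 without that library, and for EpiSC_AF it was 106.8 (51.6 to 267) and 40.4. These intervals cover counting error only. Fitted over replicates, Dnmt3l changed by -5.60 ± 0.76 on the log2 scale in FS (edgeR adjusted p = 5.90e-06), by -6.47 ± 1.10 in EpiSC_AFX (edgeR adjusted p = 8.70e-05) and by -6.50 ± 1.10 in EpiSC_AF (edgeR adjusted p = 7.79e-05). Without ES replicate 1 the values were -5.97, -6.84 and -6.87. Without ES replicate 4 they were -4.23, -5.10 and -5.14, and without EpiSC_AFX replicate 1 that comparison gave -7.57, all still called. With passage as a covariate they were -3.82, -4.53 and -5.73. Exons of Dnmt3l overlap those of Aire on the opposite strand over 67 bases, 2.24% of Dnmt3l exon bases, and Aire itself had 0, 3, 0 and 51 counts in the 4 ES libraries; the part of shared reads was not tested.

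**Figure D2:**
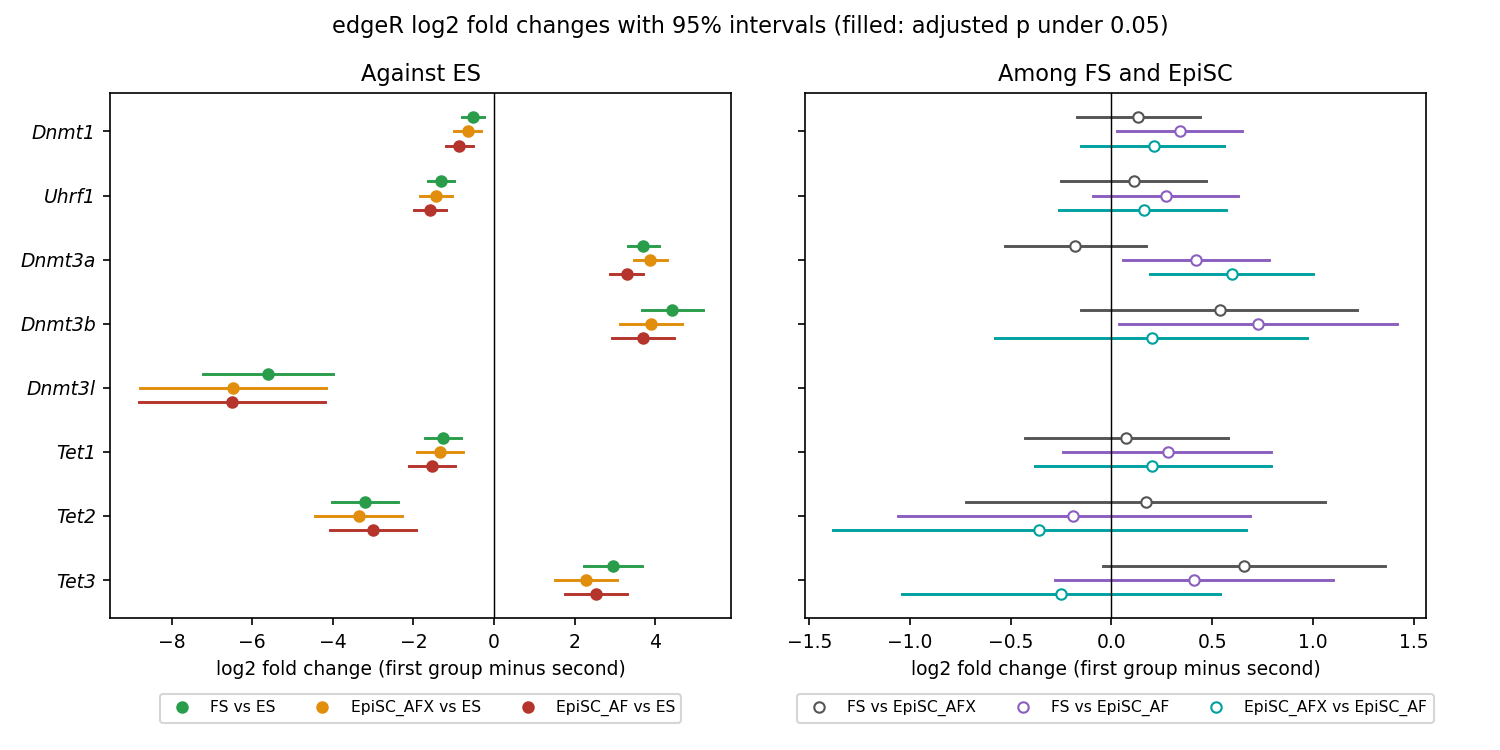
edgeR log2 fold changes (points) with 95% intervals (bars) of the 8 genes, against ES on the left and among FS, EpiSC_AFX and EpiSC_AF on the right, on different horizontal scales; filled points are called at adjusted p under 0.05 and Dnmt3l, at 0 to 9 counts outside ES, is left out on the right. All 24 points against ES are filled, from -6.50 for Dnmt3l to 4.43 for Dnmt3b, and all points on the right are open.

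Among the erasers, Tet1 and Tet2 fell and Tet3 rose. Tet1 (chr10:62804570-62908996, minus strand), the dioxygenase prominent in pluripotent cells, was at 268, 587, 556 and 549 CPM in ES. FS ran from 158 to 263 with a median of 201, EpiSC_AFX held 200, 236 and 148, and EpiSC_AF held 132, 156 and 219. ES replicate 1 was close to the highest FS library without overlapping it, and the other ES libraries were far above. Tet1 changed by -1.26 ± 0.22 on the log2 scale in FS (edgeR adjusted p = 7.05e-05), by -1.33 ± 0.27 in EpiSC_AFX (edgeR adjusted p = 4.50e-04) and by -1.54 ± 0.27 in EpiSC_AF (edgeR adjusted p = 1.21e-04). Without ES replicate 1, the values were -1.46, -1.53 and -1.73.

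Tet2 (chr3:133463679-133545139, minus strand), a TET enzyme without the CXXC domain of its relatives, was at 186, 412, 293 and 257 CPM in ES. In FS it was between 12.6 and 56.4 with a median of 32.1. EpiSC_AFX libraries held 37.7, 34.4 and 11.7 CPM and EpiSC_AF libraries 25.0, 37.2 and 45.2. Even ES replicate 1 was more than 3 times the highest library outside ES. Tet2 changed by -3.19 ± 0.39 on the log2 scale in FS (9.13-fold; edgeR adjusted p = 1.90e-06), by -3.36 ± 0.51 in EpiSC_AFX (10.3-fold; edgeR adjusted p = 3.30e-05) and by -3.01 ± 0.50 in EpiSC_AF (8.03-fold; edgeR adjusted p = 8.00e-05). The values without ES replicate 1 were -3.35, -3.52 and -3.16. With FS line 5ar1 alone the FS value was -3.83.

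Tet3 (chr6:83362373-83459084, minus strand), the TET enzyme of the oocyte and zygote, was the member with the lowest mean level per kilobase in ES. Its 4 ES libraries stood at 1.59, 2.94, 5.38 and 6.72 CPM. FS ran from 22.6 to 54.4 with a median of 28.9. EpiSC_AFX libraries were at 22.7, 21.7 and 17.5 CPM and EpiSC_AF libraries at 18.6, 27.4 and 27.5. Every library outside ES was above every ES library. The log2 rise was 2.95 ± 0.34 in FS (7.71-fold; edgeR adjusted p = 9.18e-07), 2.29 ± 0.36 in EpiSC_AFX (4.89-fold; edgeR adjusted p = 4.56e-05) and 2.54 ± 0.37 in EpiSC_AF (5.81-fold; edgeR adjusted p = 1.53e-05). Without ES replicate 1 it was 2.70, 2.04 and 2.29.

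The opposite moves changed which eraser transcripts were present. Per kilobase of exon, Tet1 made up 64.5% ± 4.39 (SD, n = 4) of the summed Tet level in ES, Tet2 35.0% ± 4.63 and Tet3 0.5005% ± 0.236. In FS the shares were 77.7% ± 7.16, 11.04% ± 5.82 and 11.3% ± 2.30 (n = 6). In EpiSC_AFX the Tet2 share was 10.2% ± 3.74 and the Tet3 share 8.16% ± 1.16, and in EpiSC_AF they were 14.5% ± 1.27 and 10.2% ± 1.45 (n = 3 each). By exon union Tet1 was thus the leading Tet transcript in all 4 conditions. With the longest transcript as length, Tet2 led in ES replicates 1 and 2 (51.9% and 52.2%, with Tet1 at 47.7% and 47.5%), and the ES means were 51.7% for Tet1 and 47.7% for Tet2. Tet3 went from a trace in ES to a share beside that of Tet2. No test was made on these shares.

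**Figure D3:**
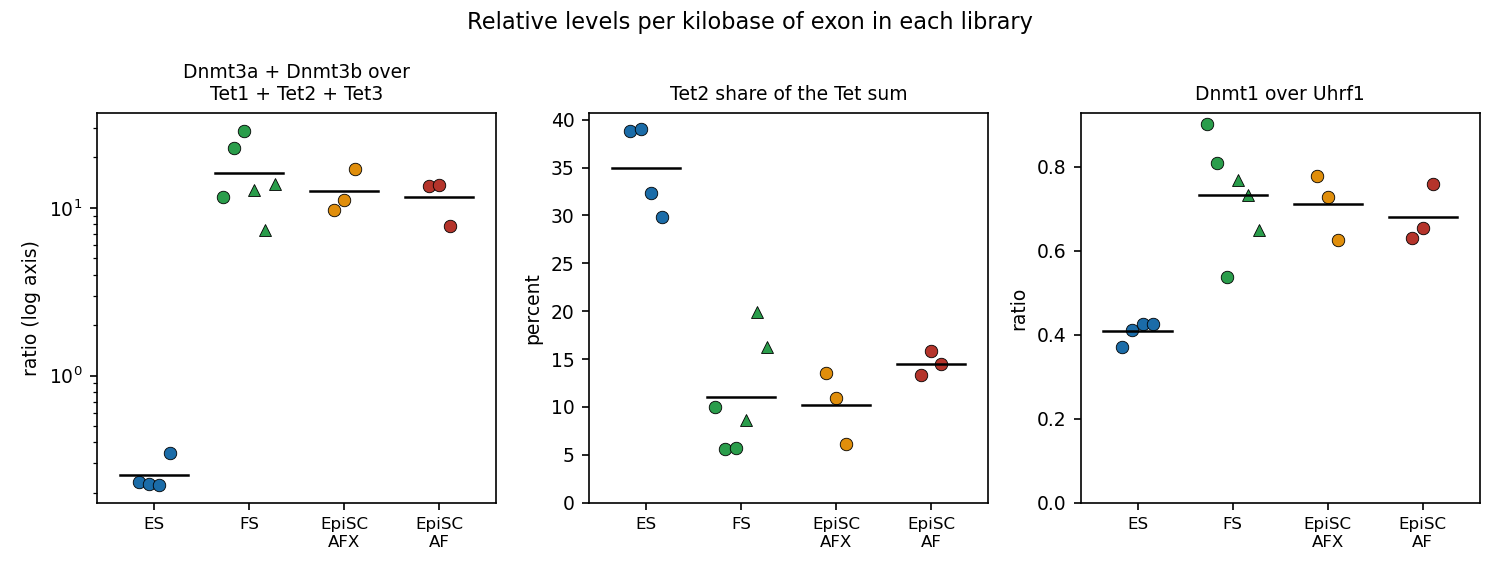
The 3 panels give relative levels per kilobase of exon in each of the 16 libraries by condition (bars: group means; FS triangles: line 5ar3): summed Dnmt3a and Dnmt3b over the summed Tet genes on a log axis, the Tet2 percentage of the Tet sum, and Dnmt1 over Uhrf1. The first lies between 0.223 and 0.345 in ES and at 7.34 or more in every other library.

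Writers and erasers can be set side by side through the summed level of Dnmt3a and Dnmt3b over that of the 3 Tet genes, per kilobase of exon. In the ES libraries it ran from 0.223 to 0.345. It ran from 7.34 to 28.8 in FS with a median of 13.4, from 9.65 to 17.1 in EpiSC_AFX and from 7.75 to 13.7 in EpiSC_AF. The Tet genes thus had the larger sum in ES and the catalytic Dnmt3 genes in all other libraries, with no overlap.

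The order of levels per kilobase also turned over. In ES it was Uhrf1 at 150 CPM per kilobase, then Dnmt1 at 61.8, Tet1 at 31.7, Tet2 at 17.02, Dnmt3b at 11.9, Dnmt3l at 2.49, Dnmt3a at 0.694 and Tet3 at 0.249. Tet1 and Tet2 were within each other's SD when the longest transcript was taken as the length (34.1 ± 10.4 and 31.3 ± 10.3), and the Dnmt3l SD of 3.15 spans Dnmt3a. In FS the order was Dnmt3b at 256, Uhrf1 at 60.3, Dnmt1 at 43.1, Tet1 at 13.2, Dnmt3a at 9.07, Tet3 at 1.95, Tet2 at 1.87 and Dnmt3l at 0.0512. There, Tet2 and Tet3 did not differ beyond their SDs of 0.944 and 0.696, and Dnmt3a passed Tet1 with the longest transcript (15.6 and 14.2). By either length Dnmt3b moved from the fifth place in ES to the first in FS.

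Formative cells and the epiblast stem cells were then compared with each other. Between FS and EpiSC_AFX, 0 of 8 genes were called by edgeR (5.00% of all genes were), none was under an unadjusted p of 0.05, and DESeq2 called 0. The intervals state what this comparison could miss: the 95% interval of the log2 difference, FS minus EpiSC_AFX, was -0.17 to 0.44 for Dnmt1, -0.25 to 0.47 for Uhrf1, -0.53 to 0.17 for Dnmt3a and -0.15 to 1.22 for Dnmt3b. For the Tet genes it was -0.43 to 0.58 for Tet1, -0.72 to 1.06 for Tet2 and -0.04 to 1.36 for Tet3. The libraries of all 8 overlapped (0 of 8 apart, where 9.89% of all genes were). Differences of 2-fold were thus within the interval for Dnmt3b, Tet2 and Tet3 and outside it for Dnmt1, Uhrf1, Dnmt3a and Tet1. For Dnmt3l, with 24 counts in 6 FS libraries and 7 in 3 EpiSC_AFX libraries, the ratio was 1.84 (95% exact counting interval 0.769 to 5.05).

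Between FS and EpiSC_AF, 0 of 8 were called by edgeR and by DESeq2 (16.6% of all genes were called by edgeR). Under an unadjusted p of 0.05 there were 3, all with the higher value in FS. The share of all genes under that p is not given, so the 3 are a description. Dnmt3b had a log2 difference of 0.73 (95% interval 0.04 to 1.42; edgeR adjusted p = 0.142), Dnmt3a of 0.42 (0.06 to 0.78; edgeR adjusted p = 0.105) and Dnmt1 of 0.34 (0.03 to 0.65; edgeR adjusted p = 0.128). Dnmt1 was the member whose libraries did not overlap between these groups, 1 of 8 where 20.4% of all genes did not overlap: the lowest FS library was at 287 CPM and the highest EpiSC_AF library at 264. The call of Dnmt3b rested on the setting. It was called with passage as a covariate (1.10; edgeR adjusted p = 0.0153), with line 5ar1 alone (1.05; edgeR adjusted p = 0.0385) and without FS replicate 5 (0.88; edgeR adjusted p = 0.0393), and Dnmt3a was called with passage as a covariate (0.57; edgeR adjusted p = 0.0375). The intervals of the others were -0.09 to 0.63 for Uhrf1, -0.24 to 0.79 for Tet1, -1.06 to 0.69 for Tet2 and -0.28 to 1.10 for Tet3.

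The 2 EpiSC media were compared last, where the AFX6 and AF32 lines differ too. Again 0 of 8 were called by edgeR or by DESeq2 (4.26% of all genes by edgeR). Dnmt3a was the gene under an unadjusted p of 0.05, a description only, as the share of all genes is not given. Its 3 EpiSC_AFX libraries (145 to 206 CPM) lay above its 3 EpiSC_AF libraries (98.2 to 133), with a log2 difference of 0.60 ± 0.19 and an edgeR adjusted p = 0.0992. It passed with these 6 libraries fitted alone (0.59; edgeR adjusted p = 0.0378) and with passage as a covariate (0.82; edgeR adjusted p = 0.0408). Dnmt1 and Dnmt3a were the 2 of 8 whose libraries did not overlap, where 33.9% of all genes did not. The 95% intervals of the others, EpiSC_AFX minus EpiSC_AF, were -0.26 to 0.57 for Uhrf1, -0.58 to 0.97 for Dnmt3b, -0.38 to 0.79 for Tet1, -1.38 to 0.67 for Tet2 and -1.04 to 0.54 for Tet3, and that of Dnmt1 was -0.15 to 0.56. Dnmt3l had 7 counts in either group.

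Within FS, the lines 5ar1 and 5ar3 share a medium. By edgeR 0 of 8 genes differed between them (3.88% of all genes did), DESeq2 called 0, and 2 were under an unadjusted p of 0.05. The share of all genes under that p is not given, so the 2 are a description. Tet2 was at 31.8, 16.3 and 12.6 CPM in 5ar1 and at 32.4, 56.4 and 39.2 in 5ar3, groups that did not overlap, with a log2 difference of -1.08 (95% interval -1.94 to -0.21; edgeR adjusted p = 0.169). Without FS replicate 1 Tet2 was called (-1.58; edgeR adjusted p = 0.0389). Dnmt3b was at 1076, 1942 and 1856 CPM in 5ar1 and at 1403, 588 and 983 in 5ar3, which overlapped, with a difference of 0.71 (0.02 to 1.41; edgeR adjusted p = 0.269). Tet3 and Dnmt3l also did not overlap, both being higher in 5ar3, which makes 3 of 8 where 18.7% of all genes did not overlap. For Tet3 the 95% interval was -1.37 to 0.07 (edgeR adjusted p = 0.334), and for Dnmt3l the 17 counts of 5ar3 stood against 7 of 5ar1. In writer-to-eraser ratio 5ar1 libraries held 11.6, 22.8 and 28.8 and 5ar3 libraries 12.8, 7.34 and 13.96.

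Passage differs between the libraries of every line, and a common slope within lines was fitted. By edgeR and by DESeq2 0 of 8 slopes were called (0.00539% of all genes were, by edgeR), and 3 were under an unadjusted p of 0.05, all upward. The share of all genes under that unadjusted p is not given, so the 3 are a description. Dnmt3l had the steepest slope, 0.330 ± 0.075 log2 per passage (unadjusted p = 4.59e-04, edgeR adjusted p = 0.352), and ES had its highest count, 498, at passage 20. Without ES replicate 4 the slope was 0.190 (edgeR adjusted p = 0.806). Tet3 had 0.095 ± 0.033 (edgeR adjusted p = 0.559) and Dnmt3b 0.085 ± 0.033 (edgeR adjusted p = 0.559). Without ES replicate 1 the slopes were 0.268 for Dnmt3l, 0.072 for Tet3 and 0.064 for Dnmt3b. Within lines Dnmt3b did not follow one direction. It was at 588, 983 and 1403 CPM at passages 4, 5 and 12 of 5ar3 and at 997, 937 and 772 at passages 5, 8 and 12 of AFX6. It was at 1076, 1942 and 1856 CPM at passages 10, 12 and 14 of 5ar1 and at 730, 941 and 691 at passages 13, 14 and 15 of AF32. In E14IV-C it was at 30.8, 68.9, 57.5 and 85.5 CPM at passages 12, 13, 15 and 20. The slopes of Dnmt1, Uhrf1, Dnmt3a and Tet1 lay between 0.024 and 0.042, and that of Tet2 was -0.038.

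Other genes of the pathway were read in 4 lists, each given by its count and its median beside that of all genes. The counts of every list stand beside 32.9% of all genes called higher and 29.9% called lower in FS. In EpiSC_AFX these shares were 28.5% and 26.2%, and in EpiSC_AF 29.7% and 27.0%. Over these and the marker lists, total-count scaling ended 8 of 61 calls in FS, 13 of 68 in EpiSC_AFX and 12 of 71 in EpiSC_AF, and turned the direction of none of the called genes. Of 17 partners that guide or limit the writers and erasers, 8 were lower and 3 higher in FS than in ES, 9 lower and 2 higher in EpiSC_AFX, and 10 lower and 2 higher in EpiSC_AF. Their median log2 fold changes were -0.34, -0.57 and -0.66, where the medians over all genes were 0.04, 0.01 and 0.01. A pair of partners was all but absent outside ES. Prdm14, which represses Dnmt3 genes in naive cells, had 613 to 1259 counts in ES libraries and 0 to 3 in the others. Dppa3, which displaces UHRF1 from chromatin, had 242 to 775 counts in ES and 0 or 1 elsewhere.

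Cxxc4, which binds TET2 and promotes its degradation, went the other way: it was at 0.0691 to 0.226 CPM in ES, 9.45 to 21.7 in FS, 4.24 to 10.7 in EpiSC_AFX and 8.49 to 12.03 in EpiSC_AF. Its log2 rise was 6.81 ± 0.45 in FS (edgeR adjusted p = 8.44e-10), 5.86 ± 0.47 in EpiSC_AFX and 6.28 ± 0.47 in EpiSC_AF. Usp7, a deubiquitinase that stabilises DNMT1 and UHRF1, changed by -1.31, -1.16 and -1.41 on the log2 scale in FS, EpiSC_AFX and EpiSC_AF, which share the ES libraries. Zfp57, which keeps methylation at imprinted regions, changed by -2.37, -2.53 and -2.26. Among histone methyltransferases linked to DNA methylation, Setdb1 changed by -1.15, -1.27 and -1.21 and Nsd1 by -0.97 in FS and -1.17 in EpiSC_AF, while Ehmt1 rose by 1.02, 0.93 and 0.67. The remodeller Hells changed by -0.63 in FS and the TET-binding enzyme Ogt by -0.49, and with total counts as the scaling neither was called (edgeR adjusted p = 0.176 and 0.579).

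**Figure D4:**
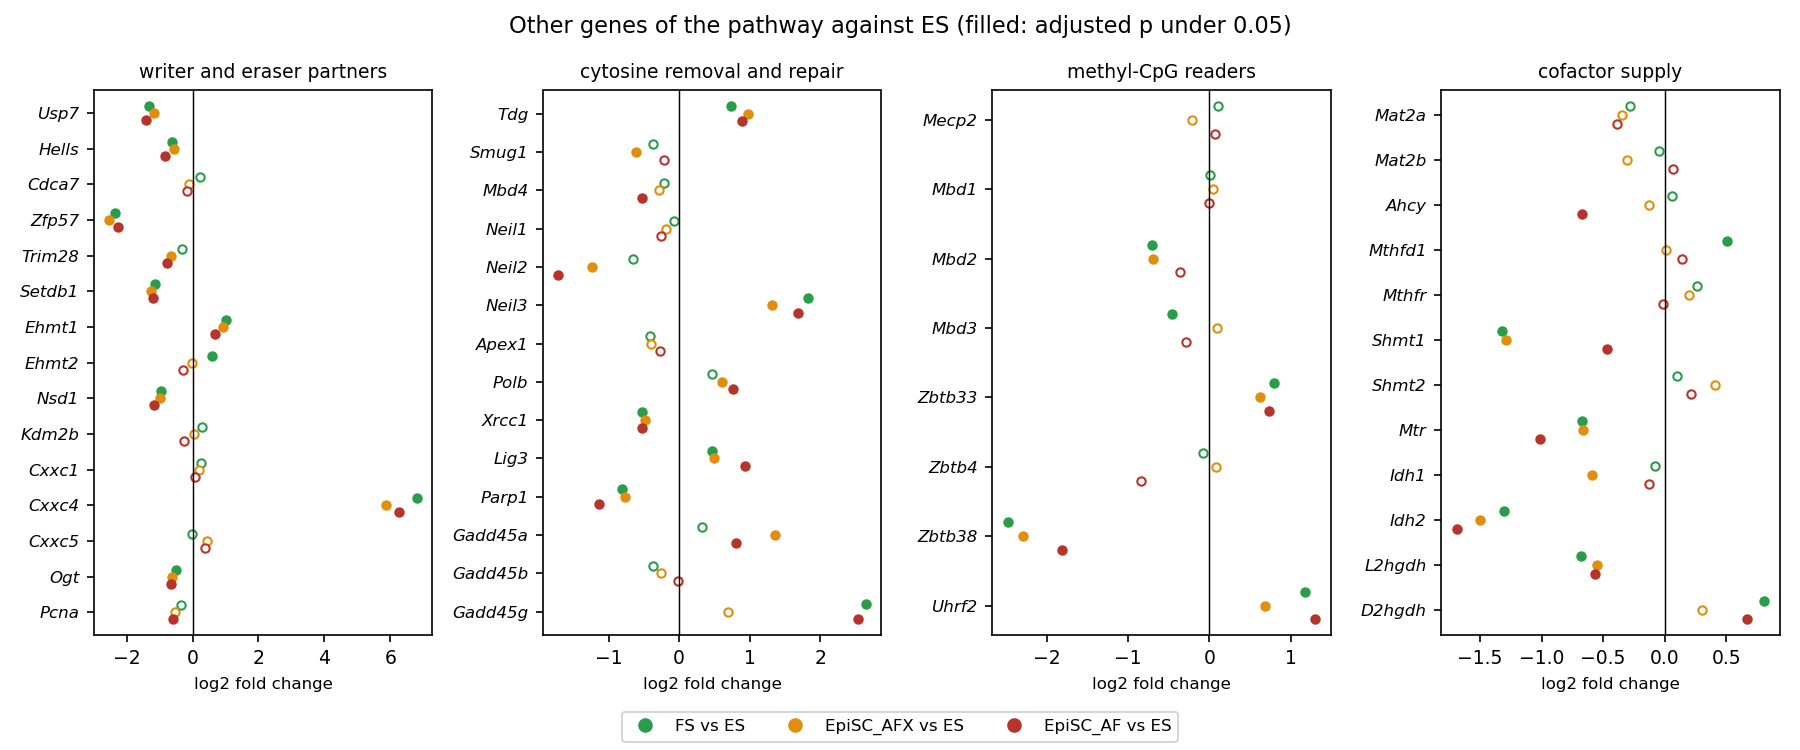
edgeR log2 fold changes against ES of the other pathway genes in 4 lists, for FS (green), EpiSC_AFX (orange) and EpiSC_AF (red), on a separate horizontal scale for each list; filled points are called at adjusted p under 0.05. Dppa3 and Prdm14, at 0 to 3 counts outside ES, are left out, and Cxxc4 stands furthest to the right at 6.81 in FS.

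Downstream of the TET enzymes, 14 genes of oxidised cytosine removal and base excision repair split both ways: 4 were higher and 2 lower in FS, 5 and 4 in EpiSC_AFX, and 6 and 4 in EpiSC_AF, with medians of -0.14, -0.22 and -0.12. Tdg, the glycosylase that excises the products of TET oxidation, rose by 0.73, 0.97 and 0.89. The glycosylase Neil3 rose by 1.83, 1.32 and 1.68 and the ligase Lig3 by 0.47, 0.49 and 0.94. Gadd45g had the largest called change of the list in FS, 2.65 (edgeR adjusted p = 3.72e-04). It was not called in EpiSC_AFX (0.69; edgeR adjusted p = 0.356). Parp1, a sensor of strand breaks, changed by -0.81, -0.77 and -1.13, and its partner Xrcc1 changed by -0.52, -0.48 and -0.53. Total-count scaling ended the call of Xrcc1 in all 3 comparisons and that of Parp1 in EpiSC_AFX (edgeR adjusted p = 0.0581).

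Of 8 genes of families that read methylated CpG, 2 were higher and 3 lower in FS, 2 and 2 in EpiSC_AFX, and 2 and 1 in EpiSC_AF, with medians of -0.03, 0.06 and -0.15. Uhrf2, the relative of Uhrf1, rose by 1.17 in FS, 0.68 in EpiSC_AFX and 1.30 in EpiSC_AF, against the fall of Uhrf1. With passage as a covariate Uhrf2 was not called in EpiSC_AFX (edgeR adjusted p = 0.171), nor without EpiSC_AFX replicate 1 (edgeR adjusted p = 0.06495). The methyl-CpG zinc finger gene Zbtb38 changed by -2.48, -2.29 and -1.81, and Zbtb33 (Kaiso) rose by 0.79, 0.62 and 0.73, a call that EpiSC_AFX lost with passage as a covariate (edgeR adjusted p = 0.0598). Of 12 genes that supply the methyl donor or the TET cosubstrate, 2 were higher and 4 lower in FS, 0 and 5 in EpiSC_AFX and 1 and 5 in EpiSC_AF, with medians of -0.06, -0.33 and -0.26. Idh2, the mitochondrial enzyme that makes 2-oxoglutarate, was lower in all 3, with log2 fold changes from -1.31 in FS to -1.69 in EpiSC_AF.

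The genes most like each member were ranked by Pearson's r of log2 CPM over the 16 libraries among 14804 genes. With ES so far from the rest, r mainly reflects that gap, and r over the 12 libraries without ES is given second. For Dnmt3b the first was Zcchc12 (0.994 and 0.91), for Dnmt3a Foxi3 (0.992 and 0.71), for Uhrf1 Gm5648 (0.993 and 0.93) and for Dnmt1 Zcchc8 (0.966 and 0.92). For Tet1 it was Fgd1 (0.960 and 0.82), for Tet2 Clock (0.972 and 0.84), for Tet3 Tbkbp1 (0.982 and 0.83) and for Dnmt3l Nckap1l (0.946 and 0.89). Dnmt3a and Dnmt3b had r = 0.97 over all 16 libraries and 0.48 over the 12, and Dnmt3b and Tet2 had -0.92 and -0.65. The points share libraries and scaling, so these values are descriptions.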

How the data were processed

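Total RNA from 16 cultures was sequenced with a directional kit, per the labels' protocols. The deposited values are raw counts per gene. Per the submitters' processing notes, Trim Galore, TopHat2 2.1.0 and featureCounts 1.5.0 were used with build mm10; the strand setting and annotation release are not given in the sources used here, so reads shared with antisense genes may be counted. The table's 6 columns that match no sample were not used. No 2 libraries agreed within sampling noise (lowest chi-square per degree of freedom 8.4).

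Counts were fitted in 1 model over all libraries with edgeR 4.0.16 (R 4.3.3): filterByExpr, TMM, robust quasi-likelihood test, Benjamini-Hochberg over the 18555 genes tested in each comparison, called at an adjusted p under 0.05. The fit was also run on simulated counts in which 200 genes were changed in FS. Far fewer genes changed there than were called here, so that run does not show how the fit behaves on these data. P-values measure the spread between libraries of a condition, which are passages of a line and not independent derivations. In FS, where the comparisons between conditions used a single mean, that spread also holds the difference between its lines. CPM use TMM library sizes. Lengths and gene coordinates are GENCODE M21 (GRCm38); per-kilobase levels use the union of exons. Intervals on counts are exact binomial, at 95%. Counts of members under an unadjusted p of 0.05 have no share of all genes beside them and are descriptions only.

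The members and lists were chosen with earlier results of these data known. All 8 members are named; of each list, the 2 largest called changes in each direction in a comparison and genes called one way in all 3 comparisons with ES may be named. Alternatives were DESeq2 1.42.0 and its size factors, total-count scaling, no filter, a test against a log2 change of 1, only the groups compared, 1 FS line, passage as a covariate, and leaving out each library.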

Additional observations from a re-analysis of the deposited data

Results flagged for a closer look

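Among 40 groups of values, 6 had 1 library far from the rest of its group by Dixon's criterion at 95%. The groups were each member, named partner and ratio in ES and FS. Dppa3 and Prdm14 in FS, at 0 or 1 count, were left out. The ratios are built from the members and some groups hold few counts, so the 6 cannot be set against a chance rate. In ES, replicate 1 was low for Dnmt1, at 301 CPM with the next library at 495, and for Tet1, at 268 CPM with the next at 549. Every call of Dnmt1 and Tet1 against ES held without it. ES replicate 2 was high for Cxxc4, at 0.226 CPM with the next at 0.0911, a matter of a few counts. ES replicate 4 was high in the ratio of Dnmt3a and Dnmt3b to the Tet genes, at 0.345 with the next at 0.234. In FS, replicate 5, line 5ar3 at passage 4, had the lowest Dnmt3b share of the Dnmt3 sum, at 93.3%, and the highest Dnmt3a share, at 6.68%, which are 2 views of the same value.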

How the results depend on the processing

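Against ES, all 8 members were called in every alternative except these: with total counts Dnmt1 was not called in FS (-0.20) and EpiSC_AFX (-0.46), and in the test against a log2 change of 1 Dnmt1 was not called in any of the 3 comparisons nor Tet1 in FS and EpiSC_AFX (edgeR adjusted p = 0.118 and 0.115). Leaving out one library gave 8 called members in each comparison with ES, 0 for FS against EpiSC_AFX, 0 to 1 for FS against EpiSC_AF, 0 for EpiSC_AFX against EpiSC_AF and 0 to 1 between the FS lines. For FS against EpiSC_AF the count was 1 with line 5ar1 alone and 2 with passage as a covariate. For EpiSC_AFX against EpiSC_AF it was 1 with only the groups compared and 1 with passage as a covariate. Among members not called, these signs turned: Tet2 in FS against EpiSC_AFX (-0.47 with 5ar1 alone) and against EpiSC_AF (0.26 with 5ar3 alone), Tet3 in EpiSC_AFX against EpiSC_AF (0.03 with passage), and Dnmt1 (0.02) and Uhrf1 (0.03) between the lines with total counts. Over single libraries left out, the ranges that crossed 0 were -0.10 to 0.23 (Tet1) and -0.20 to 0.45 (Tet2) for FS against EpiSC_AFX, -0.44 to 0.02 (Tet2) for FS against EpiSC_AF, -0.63 to 0.01 (Tet2) for EpiSC_AFX against EpiSC_AF, and -0.11 to 0.06 (Dnmt1), -0.27 to 0.12 (Uhrf1) and -0.08 to 0.32 (Tet1) between the lines. The cause was not tested. Counts over all genes moved more: 158 to 1690 for FS against EpiSC_AFX (927 as reported), 682 to 3837 for FS against EpiSC_AF (3089), 102 to 2276 between the EpiSC groups (791), 128 to 1567 between the FS lines (720; 1567 without FS replicate 1), and, against a log2 change of 1, 5810, 5064 and 5275 in the comparisons with ES. No paired analysis was possible because the replicate numbers follow the order of deposit and pair no libraries across groups. Dnmt3l, at 0 to 9 counts outside ES, limits what depth can show between the other groups.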
